A study of Rattus norvegicus with 20 samples.

Results

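Heat shock proteins and Bag co-chaperones were followed in central nucleus tissue of the amygdala from alcohol-preferring (P) rats. Adolescent animals of the ethanol group had access to 15% and 30% ethanol, and the water group had water only. Both groups belonged to the P line, which is bred for high voluntary alcohol intake, so no group had an unselected background. Each group held 10 animals, with 1 Affymetrix rat array per animal, and the labels give neither the animals' exact age nor the amount each animal drank. The list named 9 genes, Hspb1, Hspa8, Hsp90aa1, Hsph1, Dnajb1, Hspd1, Hspe1, Bag3 and Bag4. Values were taken only from probe sets annotated to exactly 1 of these symbols. That gave 9 probe sets for 7 genes, of 31099 probe sets and 14217 named genes in all, and all 9 passed the filter on low values. For Hspa8 and Hsp90aa1 each probe set carried the symbol of another gene as well, so no value is given for these 2 genes. Where a gene had several probe sets, the main one was selected on its mean log2 value over all 20 arrays (the highest), and that mean is no result here. The list was chosen by function with earlier ethanol against water results known, in which Bag4 stood among the smallest p-values, so the values below describe the genes and are no independent support for that choice.

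Heat shock proteins are molecular chaperones, which bind proteins that are unfolded or newly made and help them to fold or to be degraded. Hsp70 proteins do this in cycles driven by ATP, which J-domain proteins such as Dnajb1 start by stimulating ATP hydrolysis and which nucleotide exchange factors such as Hsph1 and the Bag proteins complete by releasing ADP. Many of these genes are induced together by heat shock factor 1, which binds repeated 5-base units known as heat shock elements.

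To show where such elements lie, promoter windows were read from RefSeq (build GRCr8), from 250 bases before to 50 bases after each gene's start. They matched 7 of the 9 listed genes and 6 of the 7 measured ones. An element of 3 units was searched as GAANNTTCNNGAA and its reverse complement TTCNNGAANNTTC, and a shorter one of 2 units as GAANNTTC and TTCNNGAA, each its own reverse complement. Every 3-unit match contains 2-unit matches. The stretches below, 5′ to 3′ on the gene's strand, carry the longest matches in capitals, and were chosen to show the measured genes with a window side by side.
Hspe1: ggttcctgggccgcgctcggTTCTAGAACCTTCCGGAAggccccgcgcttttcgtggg
Hspd1: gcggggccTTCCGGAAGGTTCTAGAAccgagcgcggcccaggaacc
Hsph1: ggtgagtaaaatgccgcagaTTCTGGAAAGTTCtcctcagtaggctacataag
Dnajb1: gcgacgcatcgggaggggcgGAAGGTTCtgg
Bag3: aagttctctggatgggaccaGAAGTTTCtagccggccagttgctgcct
Hspb1: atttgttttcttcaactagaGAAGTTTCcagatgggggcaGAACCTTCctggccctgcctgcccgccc
The Hspe1 stretch lies at chr9:64084242-64084299 on the plus strand, and the Hspd1 stretch at chr9:64084242-64084287 on the minus strand. Hsph1 is shown at chr12:10427312-10427364 (plus), Dnajb1 at chr19:41431142-41431172 (minus), Bag3 at chr1:192533308-192533355 (plus) and Hspb1 at chr12:26432383-26432450 (minus). The 3-unit element was found in Hspe1, Hspd1 and Hsph1 among the measured genes, and in Hspa8, against 0.798% of 33469 promoters (267 in all). The 2-unit element was found in each of the 7 windows, against 15.9% of all promoters. Hspd1 and Hspe1 are transcribed away from each other, with 289 bases between their starts. Their windows share 211 bases, so the capitals in their lines are the same bases of DNA read from either strand. In Dnajb1 a further 2-unit match lies after the start, at bases 18 to 25. These matches describe letters in a window and do not show binding of a factor.

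Values are log2 probe set summaries made by RMA (robust multi-array average), in which 1 unit is a doubling of signal. They are compared between animals for the same probe set and never between genes. The array medians lay between 7.92 and 7.97, and the number of arrays limits the precision. The mean correlation with the other arrays was 0.966 to 0.988, and ethanol animal 5 and water animals 15 and 18 stood apart below 0.976. Among 11 markers of the central nucleus 9 were measured, and their mean was 11.31 ± 0.27 in ethanol animals and 11.21 ± 0.35 in water animals (SD, n = 10 each). The measured markers were Prkcd, Crh, Sst, Nts, Gal, Dlk1, Gad1, Gad2 and Slc32a1. Whether they are particular to this nucleus was not tested. In such bulk tissue, fewer cells of a type and less RNA per cell cannot be told apart. Ethanol minus water was tested with limma over 18625 probe sets, with a threshold of 0.05 on the Benjamini-Hochberg adjusted p.

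With that test, 0 of the 7 measured genes passed, and 4 of all probe sets did, which is 0.0215% of them. At an unadjusted limma p under 0.05 there were 3 of 7, Bag4, Hspb1 and Bag3, or 42.9%, against 12.8% of all probe sets. Bag4 was known to be among the smallest p-values when the list was chosen, so this share is no independent support for an excess. The difference was positive for 4 genes and negative for 3. Its median was 0.01, against 0.02 over all probe sets. Bag4 was higher in ethanol animals, Hspb1 and Bag3 were lower, and the main probe sets of the Hsp70 partners Hsph1 and Dnajb1 and of the mitochondrial chaperonin genes differed by less than 0.05 log2 units. Without the 3 arrays that stood apart, the differences were 0.19 for Bag4, -0.19 for Bag3 and -0.40 for Hspb1, and 0 of 7 genes passed the adjusted limma test.

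**Figure D1:**
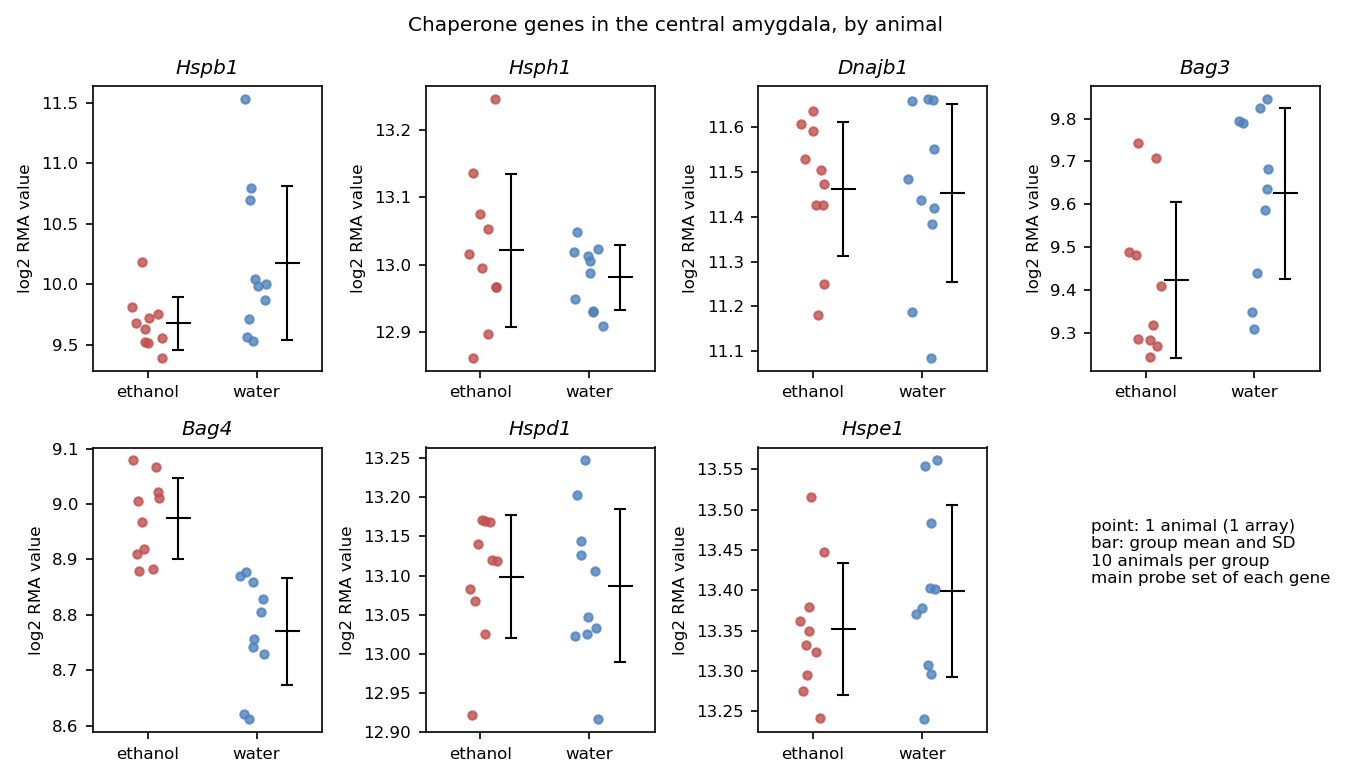
Log2 RMA value (vertical axis, a separate scale for each gene) of the main probe set of the 7 measured genes, 1 point per animal, with ethanol animals on the left, water animals on the right and bars for mean and SD (n = 10 each). Bag4 is the gene whose groups do not overlap, and water animal 18 lies at 11.53 for Hspb1, above all other animals.

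Bag4 encodes a co-chaperone that binds the ATPase domain of Hsp70 and is also known as silencer of death domains for its binding to tumour necrosis factor receptor 1. Its log2 values ran from 8.88 in the lowest ethanol animal over a median of 8.99 to 9.08 in the highest, against 8.61, 8.78 and 8.88 in the lowest, median and highest water animals. All 10 ethanol animals lay above all 10 water animals, though ethanol animal 2 at 8.8795 and water animal 13 at 8.8769 nearly met. Such a complete separation was seen for 5 probe sets, or 0.0268% of all. The means were 8.97 ± 0.073 in ethanol animals and 8.77 ± 0.096 in water animals (SD, n = 10 each), a log2 difference of 0.20 (SE 0.042) or 1.15-fold. The unadjusted limma p was 8.13e-05, rank 10 of all probe sets, and the adjusted p was 0.140. Within the 3 runs of accession numbers, which hold both groups in equal number and which no label calls a batch, the difference was 0.13, 0.31 and 0.15. With array quality weights the adjusted limma p was 0.0299, past the threshold, and under all alternatives it ranged from 0.0299 to 0.379.

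Bag3 encodes the co-chaperone that links Hsp70 and small heat shock proteins to selective autophagy. Ethanol animals had log2 values of 9.24, 9.36 and 9.74 (lowest, median, highest), and water animals 9.31, 9.66 and 9.85. The groups overlapped, with 8 of 10 ethanol animals below the water mean and 4 water animals above every ethanol animal. The means were 9.42 ± 0.18 in ethanol animals and 9.63 ± 0.20 in water animals (SD, n = 10 each), a difference of -0.20 (SE 0.082, adjusted limma p = 0.329). By run the difference was -0.12, -0.36 and -0.05. After adjustment for the myelin marker score it was -0.12, and the score itself was 11.60 ± 0.47 in ethanol animals and 11.96 ± 0.40 in water animals, with 14 of 14 measured markers lower on average in ethanol animals.

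Hspb1 encodes the small heat shock protein Hsp27, which holds unfolded proteins without using ATP and is abundant in glia, vessels and stressed neurons. Its log2 values were 9.39, 9.66 and 10.19 in the lowest, median and highest ethanol animals, and 9.54, 9.999 and 11.53 in water animals. The groups overlapped, but 3 water animals (18, 14 and 16, at 11.53, 10.80 and 10.70) lay above every ethanol animal. The means were 9.68 ± 0.22 in ethanol animals and 10.18 ± 0.64 in water animals (SD, n = 10 each). The difference was -0.50 (SE 0.20), a level 1.41-fold higher in water animals, and its adjusted limma p was 0.325. Without water animal 18 it was -0.35. The runs gave -0.63, -0.68 and 0.13, so the third run, with 2 animals per group, had the opposite sign.

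Meningeal fibroblast markers correlated with Hspb1 among animals (r = 0.79), but r was -0.14 within the first run and 0.48 without the 2 farthest animals. Their score, the mean of 9 measured genes of 10, was 8.12 ± 0.55 (7.71 to 9.56) in ethanol animals and 8.58 ± 0.89 (7.69 to 10.68) in water animals, with all 9 lower on average in ethanol animals. The choroid plexus and ependyma score, of 4 measured genes of 9, was 7.77 ± 1.49 in ethanol animals and 9.18 ± 1.68 in water animals, and the pan-neuronal score was 12.22 ± 0.098 in ethanol animals and 12.12 ± 0.11 in water animals. Water animal 18 was highest in both the meningeal and the choroid score. The Hspb1 difference was -0.26 with the meningeal score and -0.19 with the pan-neuronal score as a covariate, and the part of these cells in it was otherwise not tested.

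Hsph1 encodes Hsp110, a nucleotide exchange factor of Hsp70 and part of the disaggregase machinery. Its main probe set gave 12.86, 13.01 and 13.25 (lowest, median, highest) in ethanol animals and 12.91, 12.997 and 13.05 in water animals. The water range lay inside the ethanol range. The means were 13.02 ± 0.11 in ethanol animals and 12.98 ± 0.048 in water animals (SD, n = 10 each), a difference of 0.04 (SE 0.042, adjusted limma p = 0.701). The other Hsph1 probe set gave 11.04, 11.23 and 11.38 in ethanol animals and 10.30, 11.14 and 11.22 in water animals. All 10 ethanol animals were above the water mean, and 3 water animals were below every ethanol animal. The difference there was 0.19 (SE 0.090, unadjusted limma p = 0.0410, adjusted p = 0.375), and it was 0.12 without water animal 15, the lowest. The 2 probe sets of Hsph1 thus differed in size of difference, and among animals they did not follow each other (r = -0.03, permutation p = 0.866, rho = -0.03, permutation p = 0.909, 20 animals centred on their group mean).

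Dnajb1 encodes Hsp40, the J-domain protein that hands unfolded proteins to Hsp70. Its main probe set had values of 11.18, 11.49 and 11.64 in the lowest, median and highest ethanol animals, and 11.08, 11.46 and 11.66 in water animals. The ranges were nearly the same. Means were 11.46 ± 0.15 in ethanol animals and 11.45 ± 0.20 in water animals (SD, n = 10 each), with a difference of 0.01 (SE 0.076, adjusted limma p = 0.972) whose sign turned without some of the animals (-0.03 to 0.04). The other Dnajb1 probe set had 9.33, 9.57 and 9.86 in ethanol animals and 8.79, 9.49 and 9.81 in water animals, a difference of 0.15 (SE 0.10, adjusted limma p = 0.525). Water animal 15 was lowest for this probe set as well, and without it the difference was 0.08. The 2 Dnajb1 probe sets followed each other among animals (r = 0.61, permutation p = 0.00835, rho = 0.73, permutation p = 0.00037, r = 0.52 without the 2 farthest animals).

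The other probe sets of Hsph1 and Dnajb1 also correlated with each other (r = 0.83, permutation p = 0.00027, rho = 0.69, permutation p = 0.00135, and r = 0.67 without the 2 farthest animals). Beside this, the signal of control probe sets at the 3′ end minus that at the 5′ end, a measure of RNA integrity, was 1.17 ± 0.14 in ethanol animals and 1.22 ± 0.18 in water animals. Its highest value was 1.52 in water animal 13, followed by 1.476 in water animal 15. Against this score the other probe set of Dnajb1 had r = -0.73 (permutation p = 0.00077, adjusted p = 0.0240 over 99 relations with scores, rho = -0.66, permutation p = 0.00186), with -0.71 and -0.51 within the first and second runs and -0.50 without the 2 farthest animals. The other probe set of Hsph1 had r = -0.55 (permutation p = 0.0167, adjusted p = 0.116, rho = -0.47, permutation p = 0.0344), and -0.20 without the 2 farthest animals. The main probe set of Hsph1 ran the opposite way (r = 0.47, permutation p = 0.0218, adjusted p = 0.116, rho = 0.54, permutation p = 0.0179), and that of Dnajb1 had r = -0.48 (permutation p = 0.0460, adjusted p = 0.176, rho = -0.42, permutation p = 0.0786). With this score as a covariate, ethanol minus water was 0.11 for the other Dnajb1 probe set, against 0.15 without it. For the other Hsph1 probe set it was 0.16, against 0.19. The part of RNA integrity in these differences was otherwise not tested.

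Hspd1 (Hsp60) and Hspe1 (Hsp10) encode the barrel and the lid of the chaperonin of the mitochondrial matrix, and share the promoter stretch shown above. For Hspd1 the lowest, median and highest values were 12.92, 13.12 and 13.17 in ethanol animals and 12.92, 13.08 and 13.25 in water animals. The groups overlapped almost fully, with means of 13.10 ± 0.078 in ethanol animals and 13.09 ± 0.098 in water animals (SD, n = 10 each). The difference was 0.01 (SE 0.043, adjusted limma p = 0.930). Hspe1 had 13.24, 13.34 and 13.52 in ethanol animals and 13.24, 13.39 and 13.56 in water animals. These ranges overlapped as well, though 8 of 10 ethanol animals were below the water mean. The Hspe1 means were 13.35 ± 0.081 in ethanol animals and 13.40 ± 0.11 in water animals (SD, n = 10 each), a difference of -0.05 (SE 0.045, adjusted limma p = 0.663).

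**Figure D2:**
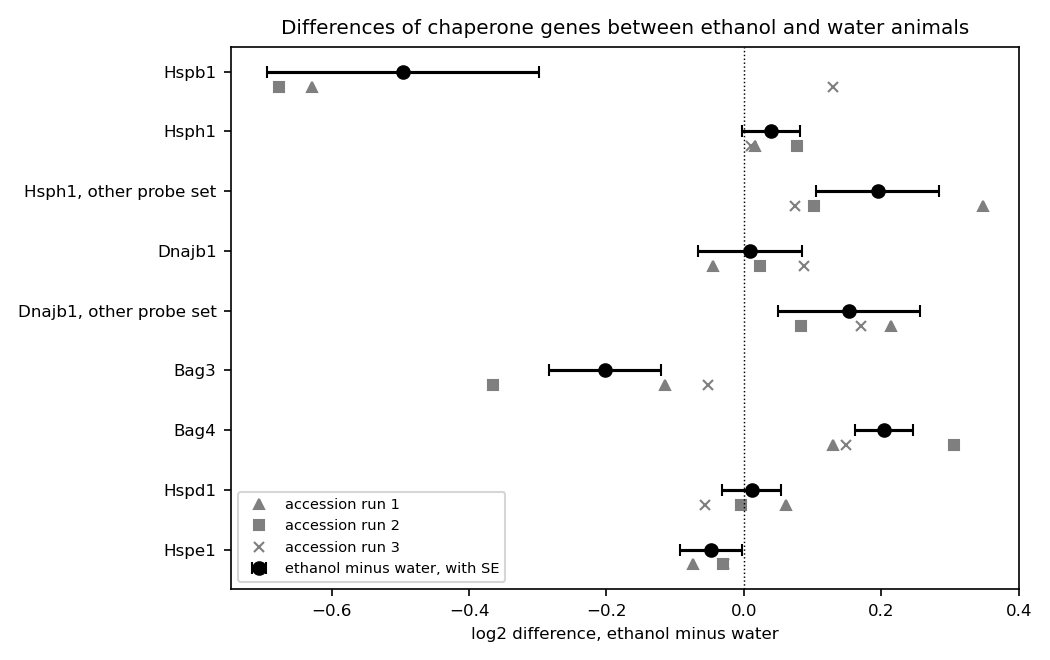
Log2 difference, ethanol minus water (horizontal axis), of the 9 probe sets of the 7 measured genes, as the limma estimate with its SE (black) and within each of the 3 accession runs (grey). Bag4 and Bag3 keep their sign in every run, at 0.13 to 0.31 and at -0.36 to -0.05, while Hspb1 is at 0.13 in the third run.

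The genes were then compared among animals of the same group, to see which rose and fell together. Each value was centred on its group mean, and the 21 pairs of the 7 genes were tested over 20 animals by a permutation test within groups, with Benjamini-Hochberg adjustment over the 21. Of these pairs 0 passed an adjusted p of 0.05, and 3 had an unadjusted p under it. These 3 were Hspd1 and Bag3, given below, Hspb1 and Bag4, and Hspb1 and Hspe1. Hspb1 and Bag4 had r = -0.53 (permutation p = 0.0318, adjusted p = 0.217), and -0.33 without water animals 14 and 18, the farthest. Hspb1 and Hspe1 had r = 0.505 (permutation p = 0.0432, adjusted p = 0.217), and 0.06 without the same 2 animals. Over the 21 pairs r ran from -0.53 to 0.60 with a median of 0.16, and 15 of 21 were positive. Over all probe sets the 5th to 95th percentiles of r were -0.56 to 0.61 with Hspb1, -0.60 to 0.58 with Hspd1 and -0.60 to 0.56 with Bag3. They were -0.54 to 0.51 with Hsph1, -0.39 to 0.42 with Dnajb1, -0.498 to 0.498 with Hspe1 and -0.56 to 0.57 with Bag4. The highest r, of Hspd1 and Bag3, lay just above both ranges, and the lowest, of Hspb1 and Bag4, inside both. The r of Hspb1 and Hspe1 lay just above the range of Hspe1. That of Dnajb1 and Bag3, 0.46, lay above the range of Dnajb1. Both were inside the range of the other gene. The median r was -0.02 among ethanol animals and 0.22 among water animals. In limma fits of every probe set on each gene, 6.22% of probe sets covaried with Hspb1, 6.54% with Hspd1 and 5.69% with Bag3. For the others the shares were 0.129% (Hsph1), 0.0859% (Dnajb1), 0.0805% (Hspe1) and 0% (Bag4). Among the 42 ordered pairs of the measured genes 0 passed that adjusted limma threshold, and 9 (21.4%) had an unadjusted p under 0.05. The share of all probe sets at that unadjusted p was 23% for Hspb1, 17.6% for Hsph1, 6.36% for Dnajb1, 24.7% for Hspd1, 14% for Hspe1, 24.4% for Bag3 and 23.6% for Bag4, a range that includes the share among the pairs.

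Hspd1 and Bag3 had the highest correlation (r = 0.60, permutation p = 0.00698, adjusted p = 0.147, rho = 0.62, permutation p = 0.00517). It was 0.30 among ethanol animals and 0.82 among water animals, 0.83 and 0.75 within the first and second runs of 8 animals, and 0.62 without the 2 farthest animals. The third run held 4 animals, too few for a value. Without the 3 arrays that stood apart it was 0.57, and the r of Dnajb1 and Bag3, given next, was 0.38.

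Dnajb1 and Bag3 had r = 0.46 (permutation p = 0.0515, adjusted p = 0.217, rho = 0.52, permutation p = 0.0253). Among ethanol animals r was -0.16, and among water animals it was 0.89. Within the runs it was 0.39 and 0.73, and without ethanol animal 1 and water animal 13, the farthest, it was 0.67. Ethanol animal 1 had the lowest Dnajb1 and the highest Bag3 value of its group, and without it r was 0.75 (adjusted permutation p = 0.00903). The difference between the groups had a permutation p of 0.0345 and an adjusted p of 0.209 over 21 pairs. For such differences 0 of 21 pairs passed the adjusted permutation test, and 5 had an unadjusted p under 0.05. How often other pairs of probe sets differ at that p was not counted, so these 5 have no background. The 21 pairs also share 7 genes and the same arrays, so they are not independent of each other. The lowest p was for Hspb1 and Bag4 (permutation p = 0.0130, adjusted p = 0.209), with r = 0.16 among ethanol animals and -0.74 among water animals.

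Hspd1 and Hspe1 had r = 0.37 (permutation p = 0.133, adjusted p = 0.279, rho = 0.42, permutation p = 0.0744). It was 0.38 among ethanol animals, 0.36 among water animals, 0.11 and 0.68 within the runs, and 0.57 without the 2 farthest animals. Whether their shared promoter stretch has a part in this was not tested. The 2 Bag genes had r = -0.46 (permutation p = 0.0516, adjusted p = 0.217, rho = -0.46, permutation p = 0.0486), which was -0.80 and 0.32 within the runs and -0.30 without the 2 farthest animals.

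**Figure D3:**
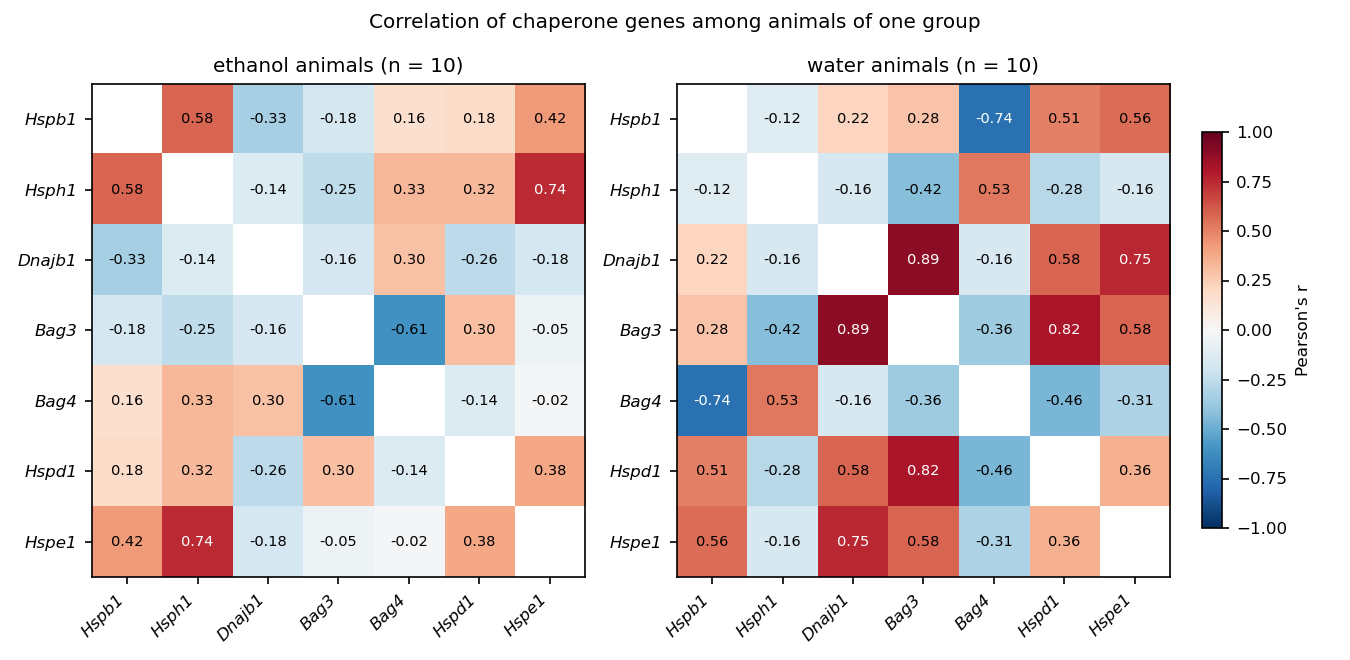
Pearson's r (colour and printed value) of each pair of the 7 measured genes among the 10 ethanol animals (left) and the 10 water animals (right). Dnajb1 and Bag3 stand at -0.16 in ethanol animals and 0.89 in water animals, and no difference between the groups passed the adjusted test.

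The spread among animals of a group was compared as well. For Hspb1 the SD was 0.22 in ethanol animals and 0.64 in water animals, 2.91 times as large in water animals (permutation p = 0.0193, adjusted p = 0.135 over 7 genes). For the main probe set of Hsph1 it was 0.11 in ethanol animals and 0.048 in water animals, 2.35 times as large in ethanol animals (permutation p = 0.0635, adjusted p = 0.222). Its other probe set went the opposite way, with an SD of 0.10 in ethanol and 0.28 in water animals (not tested). That water SD includes water animal 15 at 10.30, with the next water animal at 10.87, a gap of 0.620 of the range. In the adjusted permutation test 0 of 7 genes passed, with Hspb1 the one gene at an unadjusted p under 0.05. The log2 ratio of variances, ethanol over water, was -3.08 for Hspb1 and 2.47 for the main probe set of Hsph1. Over all probe sets the median was -0.24, with 5th to 95th percentiles of -2.21 to 1.61. When single animals were left out the ratio ran from -4.47 to -2.08 for Hspb1, the upper end inside those percentiles. For Hsph1 it ran from 1.67 to 2.78.

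To place each gene among the other transcripts, the 2 named genes with the most similar pattern over the 20 centred animals were listed. They are the highest of all probe sets and carry no test. For Hspb1 they were Aebp1 (r = 0.93) and the complement gene C3 (r = 0.91). Dnajb1 was most like Crh, which encodes corticotropin-releasing hormone (r = 0.86, 0.74 among ethanol animals and 0.93 among water animals), and Ctsz (r = 0.81). Hspe1 was most like Ndufa4, a mitochondrial respiratory chain gene (r = 0.88), and Tomm7, of the mitochondrial import pore (r = 0.86), and Hspd1 like Sdf4 (r = 0.89) and Eef1d (r = 0.87). Bag3 was nearest to Gemin7 (r = 0.83) and Txnl4a (r = 0.82), Hsph1 to Cep41 (r = 0.82) and Axin2 (r = 0.80), and Bag4 to Unc79 (r = 0.81) and Ube3al1 (r = 0.80).

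Scores of cell type markers and RNA integrity were set against the 9 probe sets in 99 relations, with permutation p-values adjusted over all 99. The share of all probe sets that follow each score was not counted, so no relation is shown to be particular to its gene. Hspb1 followed the meningeal score (r = 0.79, permutation p = 0.00121, adjusted p = 0.0240, rho = 0.46, permutation p = 0.0718), but r was -0.14 and 0.94 within the runs and 0.48 without the 2 farthest animals, so the relation rested on few animals. Hspb1 ran against the pan-neuronal score (r = -0.67, permutation p = 0.00167, adjusted p = 0.0276, rho = -0.47, permutation p = 0.0338), with -0.03 and -0.96 within the runs and -0.54 without the 2 farthest. Dnajb1 followed the central nucleus score, which includes Crh (r = 0.71, permutation p = 0.0010, adjusted p = 0.0240, rho = 0.67, permutation p = 0.00293), with 0.83 and 0.82 within the runs and 0.61 without the 2 farthest. The other Dnajb1 probe set had r = 0.36 with this score (permutation p = 0.161, adjusted p = 0.380, rho = 0.41, permutation p = 0.0805).

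Bag3 followed the microglia score (r = 0.74, permutation p = 0.00041, adjusted p = 0.0203, rho = 0.71, permutation p = 0.00126), with 0.83 and 0.82 within the runs and 0.68 without the 2 farthest. It ran against the score of cortical and basolateral excitatory neurons (r = -0.77, permutation p = 0.00018, adjusted p = 0.0178, rho = -0.79, permutation p = 7e-05), with -0.89 and -0.70 within the runs and -0.86 without the 2 farthest. These 2 scores were 9.43 ± 0.050 and 8.85 ± 0.72 in ethanol animals, and 9.45 ± 0.093 and 8.76 ± 0.71 in water animals. Bag4 ran against the microglia score (r = -0.68, permutation p = 0.00203, adjusted p = 0.0287, rho = -0.71, permutation p = 0.00107), with -0.76 and -0.21 within the runs and -0.56 without the 2 farthest. It also ran against the myelin score (r = -0.63, permutation p = 0.00311, adjusted p = 0.0385, rho = -0.60, permutation p = 0.00731), with -0.53 and -0.61 within the runs and -0.56 without the 2 farthest. Adjusted for myelin, the Bag4 difference was 0.16, against 0.20 without it.

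**Figure D4:**
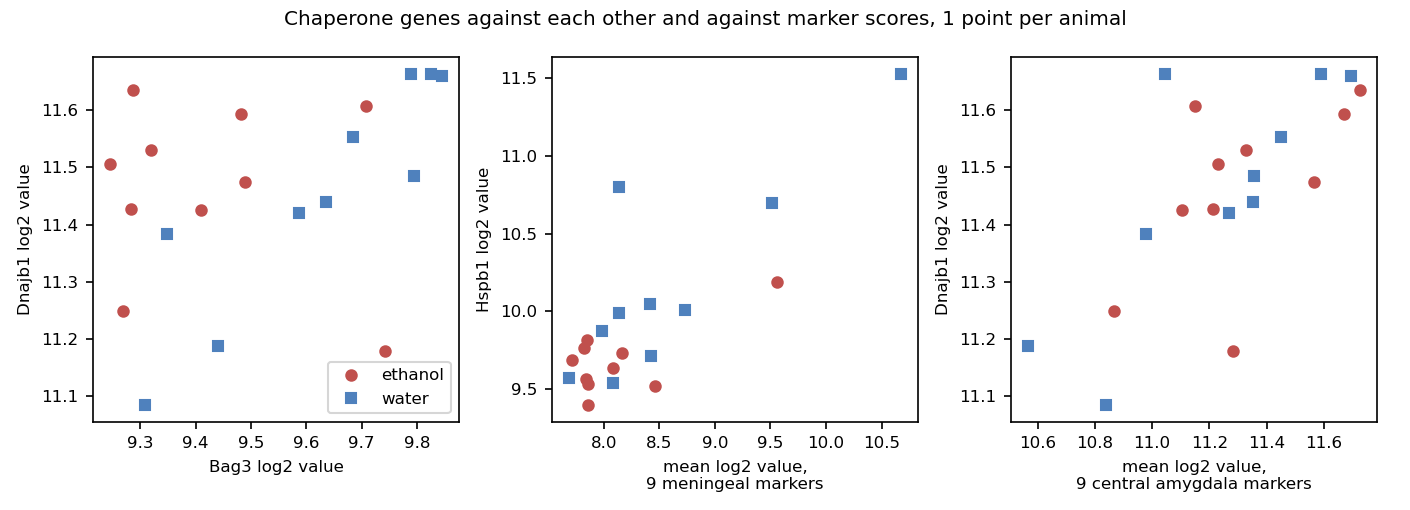
Dnajb1 against Bag3 (left), Hspb1 against the mean of 9 meningeal markers (middle) and Dnajb1 against the mean of 9 central nucleus markers (right), all in log2 values, 1 point per animal, circles for ethanol and squares for water animals. Water animal 18 sets the upper end of the middle panel, at 10.68 and 11.53.

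Other genes of the chaperone system were taken from 8 lists of 103 genes, of which 87 were measured. In limma 0 of 87 were called higher and 0 lower, and 10 (11.5%) had an unadjusted p under 0.05, 8 of them higher and 2 lower in ethanol animals, a share near the 12.8% of all probe sets. The median difference was 0.02, as over all probe sets, with 61 positive and 26 negative. The share of positive differences among all probe sets was not counted, so the sign counts here and below have no background. The lowest adjusted p was 0.239, for Clpp and Hspa12a.

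Among 7 Hsp70 and Hsp110 genes 5 differences were positive, with Hspa12a at 0.16 (SE 0.048) and Hspa4l, an Hsp110 relative, at 0.16 (SE 0.052, adjusted limma p = 0.292). Among 20 J-domain genes 17 were positive, with Dnajc27 at 0.13 and Dnaja2 at 0.10. Hspa2 at -0.32 and Dnajb2 at -0.14, named after their values were seen, were the 2 genes lower at an unadjusted p under 0.05. Of 10 Bag and other Hsp70 partner genes 8 were positive, with the ubiquitin ligase Stub1 at 0.14 (SE 0.058) and Stip1, which joins Hsp70 to Hsp90, at 0.11. Without the arrays that stood apart, Hspa12a was at 0.15, Hspa4l at 0.11 and Dnajc27 at 0.10. Dnaja2 was then at 0.06, Stub1 at 0.09 and Stip1 at 0.06.

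The Hsp90 list had 5 positive and 8 negative differences of 13, with the phosphatase Ppp5c at 0.11 and Sugt1 at -0.06. Of 4 measured small heat shock genes 3 were negative, with the lens and glial protein Cryab at -0.44 (SE 0.23, adjusted limma p = 0.411) and the Bag3 partner Hspb8 at -0.27 (SE 0.14, adjusted limma p = 0.425). Adjusted for the myelin score, whose 14 measured markers were all lower on average in ethanol animals, Cryab was at -0.01 and Hspb8 at -0.10. Adjusted for the meningeal score they were at -0.29 and -0.09, and without water animal 18 Hspb8 was at -0.16. Of 15 mitochondrial genes 12 were positive, with the matrix protease subunit Clpp at 0.21 (SE 0.060) and the iron-sulfur co-chaperone Hscb at 0.09. The list of CCT and prefoldin subunits, whose complexes fold actin and tubulin, had 9 positive of 13, with Cct8 at 0.12 and Tcp1 at 0.09. The heat shock factor list had 4 positive of 5, with Hdac6 at 0.11 and Hsbp1 at 0.07. Water animal 15 moved several of these values by over 1.5 times, and without it Stip1 was at 0.05, Ppp5c at 0.06, Cct8 at 0.07, Tcp1 at 0.05 and Hsbp1 at 0.04. Adjusted for the pan-neuronal score Dnajc27 was at 0.05.

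**Figure D5:**
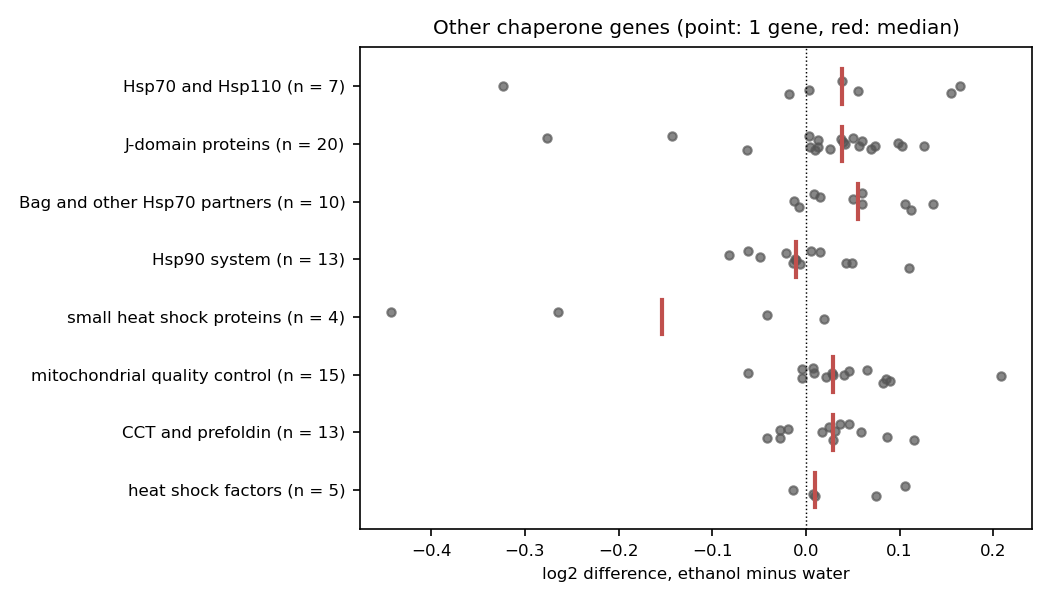
Log2 difference, ethanol minus water (horizontal axis), of the 87 measured genes of 8 chaperone lists, 1 point per gene, with the median of each list in red. Most points lie close to 0, and Cryab at -0.44 (-0.01 when adjusted for the myelin score) and Clpp at 0.21 (0.14) mark the ends, with 0 of 87 past the adjusted limma threshold (10 at an unadjusted p under 0.05).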

How the data were processed

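Total RNA of the central nucleus of the amygdala was measured on 1 array per animal in 20 rats. The labels' protocols name Trizol followed by RNeasy columns for RNA, and a 3′ IVT kit for biotinylated cRNA. The authors deposited 1 log2 value per probe set and array, made with RMA per the submitters' processing notes (version not given in the sources used here). That the scale is log2 was judged from the range of values.

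Groups came from the labels, which name no batch. Accession runs held 4 and 4, 4 and 4, and 2 and 2 ethanol and water animals. Nothing beyond the animal numbers says how animals were housed. The members and lists were chosen with earlier results of these data known. Of 31099 probe sets, those with a mean above the 40th percentile (log2 7.14) were kept, 18625 in all. The group difference was estimated in R 4.3.3 by limma 3.58.1 (lmFit and eBayes, two-sided). The median SE was 0.0624. Correlations and spread were tested two-sided with 100000 permutations, over 21 pairs because 2 genes had no probe set of their own. The other tools were scipy 1.17.1, numpy 2.4.6, matplotlib 3.10.9 and pandas 2.3.3 under Python 3.11.15. The limma fits and the test of pair correlation were tested on simulated data.

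Named genes were the listed genes, the 2 with the smallest p from each list where none passed, and the 2 most similar to each measured gene. Marker scores are means of log2 values over the measured markers. Probe sets are named by the array's annotation, and sequences are from RefSeq. Alternatives were the filter (none, or the 20th percentile), the run as a block, median centring, trend and robust settings of eBayes, array quality weights, the myelin and pan-neuronal scores as covariates, the mean of a gene's probe sets, and leaving out each animal. The 3′ to 5′ and meningeal scores as covariates, leaving out the arrays that stood apart, and the other probe sets of Hsph1 and Dnajb1 were chosen after seeing the data.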

Additional observations from a re-analysis of the deposited data

Results flagged for a closer look

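Among 18 groups of 10 values (9 probe sets in each of the groups), the gap of the highest or lowest animal to its neighbour passed Dixon's critical value of 0.466 in 2. Chance alone marks about 1 in 20 groups. Hspb1 in ethanol animal 5 was 10.19 (10.1873), with the next ethanol animal at 9.81, a gap of 0.473 of the range. The other Hsph1 probe set in water animal 15 was 10.30 (10.3024), with the next water animal at 10.87, a gap of 0.620 of the range. Both animals were among the 3 whose arrays stood apart from the rest.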

How the results depend on the processing

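No paired analysis was possible because no animal number occurs in both groups. The number of measured genes past the adjusted limma threshold was 0, and it was 1 with array quality weights (Bag4) and 0 under the other 32 alternatives. The count over all probe sets was 4, and it was 23 with array quality weights, 1 with the pan-neuronal score, 1 with the meningeal score, 0 when adjusted for the myelin score (2364 at an unadjusted limma p under 0.05), and 1 to 8 when single animals were left out. List counts were 0 under all 31 alternatives. The count of covarying pairs, 0, was 1 with the pan-neuronal score removed (Hspd1 and Bag3, adjusted permutation p = 0.0332), 2 among water animals alone (Dnajb1 and Bag3, Hspd1 and Bag3), 1 with the other probe sets (Hsph1 and Dnajb1), and 0 to 1 when single animals were left out (Dnajb1 and Bag3 without ethanol animal 1, Hspd1 and Bag3 without ethanol animal 10). Differences in covariation numbered 0 to 1 when single animals were left out (Hsph1 and Hspe1 without ethanol animal 3, Hspb1 and Bag4 without water animal 21). Differences in spread numbered 0 to 1 (Hspb1 without ethanol animal 5). The sign turned for Hsph1 with the myelin score (-0.0011), for Dnajb1 with the 3′ to 5′ score (-0.0128), with the meningeal score (-0.0084) and when single animals were left out (-0.0319 to 0.0405), for Hspd1 when single animals were left out (-0.0075 to 0.0311), and for Hspe1 with the pan-neuronal score (0.0026). Among ethanol animals alone r was -0.165 for Dnajb1 and Bag3 and 0.1634 for Hspb1 and Bag4. The causes were not tested. Differences of Hspb1, Bag3 and Bag4 kept their sign in each of 32 alternatives, many of which left out only 1 animal. The Hspb1 difference ranged from -0.57 to -0.19 in them, and within the third run alone it was 0.13. With 10 arrays per group, differences near the median SE of 0.0624 could not be detected.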
